A study of Homo sapiens with 9 samples.

Results

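The mean of the 1-1 KO line and the 1-2 KO line of Huh-7 cells was compared to WT, gene by gene, to describe what both knockout lines had in common. A gene was a member when all 6 knockout libraries lay on the same side of all 3 WT libraries, and 5241 of 17207 tested genes met this rule, of which 2616 were higher and 2625 lower in the knockouts. They are called one-sided genes. Huh-7 is a human hepatocellular carcinoma line. The 9 libraries comprised 3 of each line, made from cells grown in the same serum-containing medium, and a library's level of a gene is given in CPM, its count scaled to a common library total after TMM normalization. The 1-1 KO line lacks vtRNA1-1 and the 1-2 KO line lacks vtRNA1-2. WT and 1-1 KO cells came from another laboratory, and 1-2 KO cells were derived from the same WT cells with CRISPR/Cas9 and a pair of guide RNAs and grown from a single cell. Each knockout was thus 1 line, and the loss of a vault RNA cannot be told apart from what else distinguishes that line.

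Vault RNAs are short noncoding RNAs transcribed by RNA polymerase III, and part of them is bound to the vault, a large ribonucleoprotein particle of the cytoplasm. The annotation placed VTRNA1-1 on the plus strand at chr5:140711275-140711373 and VTRNA1-2 at chr5:140718925-140719013 (GRCh38). Both sequences are shown because they are what the lines were made to lack. Lower case marks the 81 positions that were identical in a global alignment, and capitals mark bases that differed or had no partner.
VTRNA1-1: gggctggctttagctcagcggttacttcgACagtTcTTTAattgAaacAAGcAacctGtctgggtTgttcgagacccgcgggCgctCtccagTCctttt
VTRNA1-2: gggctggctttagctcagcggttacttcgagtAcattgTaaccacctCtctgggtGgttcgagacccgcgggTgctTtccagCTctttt
The RNAs are 99 and 89 nt long. They begin alike, and their differing bases lie in the central part and near the 3′ end. These poly(A)-selected libraries did not check the knockouts: VTRNA1-1 had 1 count in WT replicate 1 and 0 counts in the other 8 libraries, and VTRNA1-2 had 0 counts in all 9.

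Total counts ranged from 32384469 to 41782387 per library, and WT replicate 3 was the least deep. All 9 pairs of libraries within a line differed by more than counting noise (chi-square per degree of freedom 2.05 to 15.8), with the largest values for pairs with 1-2 KO replicate 1. The summed level of 10 hepatocyte markers, among them ALB, APOB and HNF4A, lay between 15378 and 32649 CPM over the libraries, none of them at the floor of 3 counts or fewer in every library. Of 10 markers each, 4 endothelial (KDR, TEK, TIE1 and ROBO4), 2 blood cell (HBA1 and HBB) and 5 neural markers (RBFOX3, DCX, NEFL, NEFM and OLIG2) were at that floor in all 9 libraries. The other members were not: in WT the lists summed to 30.1 to 39.6 CPM, 133 to 135 CPM and 84.4 to 88.4 CPM. The study calls the libraries of a line biological replicates, and as each knockout is 1 line, p-values do not cover the spread between independent clones.

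edgeR's quasi-likelihood test, adjusted by Benjamini-Hochberg over all tested genes, called 5078 genes higher and 4892 lower in the mean of the knockouts (p under 0.05 after adjustment). That is 57.9% of genes, with 29.5% called higher and 28.4% lower. The one-sided rule was narrower, as 4809 called genes overlapped WT in at least 1 library, and 80 one-sided genes were not called. One-sided genes made up 30.5% of tested genes, 15.2% above and 15.3% below WT. These shares are the background for every list below. With library size alone in place of TMM normalization, 60.7% of one-sided genes were higher, against 49.9%. Without WT replicate 3 there were 3292 one-sided genes above and 3184 below WT, and without 1-2 KO replicate 1 2878 and 2789. With the 6 knockout libraries fitted as 1 group, so that the difference between the lines entered the error, 1949 genes were called higher and 1724 lower.

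The numbers of one-sided genes were near equal in both directions, but their sizes, pooled over all levels, were not. The median change was 1.59-fold for genes above WT and 1.31-fold for genes below it, and the 95th percentile was 10.1-fold above against 2.62-fold below. A change of at least 2-fold was seen in 953 genes above WT (5.54% of tested genes) and in 252 below it (1.46%). Of the 953, 127 had at most 3 counts in every WT library and 528 others were under 1 CPM in WT, against 0 and 83 of the 252. At 10 to 100 CPM in WT the sizes were alike, with medians of 1.284-fold above and 1.282-fold below and with 40 and 52 genes past 2-fold. At the edge of the rule, RCBTB2 was the last gene inside among those with a mean of 10 CPM or more, with 9.95 CPM in the lowest knockout library and 9.95 CPM in the highest WT library, equal to the digits shown. ERI2 lay just outside, with 28.2 and 28.2 CPM. For lower genes, PPP2R1A was the last inside, with 248 CPM in the highest knockout library and 248 CPM in the lowest WT library. The mitotic spindle gene HMMR lay just outside, since its highest knockout library reached the lowest WT library, both near 94.9 CPM.

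The shares above and below WT differed between levels. Above WT were 16.7% of genes under 1 CPM in WT, 18.7% at 1 to 10 CPM, 13.7% at 10 to 100 CPM and 7.39% at 100 CPM or more. The share below WT ran the opposite way through the same bins, with 4.16%, 10.1%, 19.2% and 33.4%. WT values set both the bin and the difference, so the genes were also binned by the mean of all 9 libraries. There the share above WT was 13.6%, 20.3%, 14.9% and 9.49% from the lowest bin to the highest, and the share below was 5.19%, 10.3%, 19.2% and 29.6%. Fold changes shrank with abundance: the median of one-sided higher genes was 3.06-fold under 1 CPM in WT and 1.2-fold at 100 CPM or more, and that of lower genes 2.02-fold and 1.26-fold. A further 265 genes had at most 3 counts in every WT library. They could enter the test only through high knockout libraries, so that 127 (47.9%) above and none below WT is set by the filter and is no result. Under 1 CPM, genes short of the filter's minimum of 10 counts in a WT library also needed knockout libraries to pass. The shares of that bin are thus partly set by the filter. PAK5, FAT3, MX1 and SLC7A8, named below, are such genes, and their rises are given without a p-value. Genes at 100 CPM or more held 3 higher and 15 lower genes past 2-fold.

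**Figure D1:**
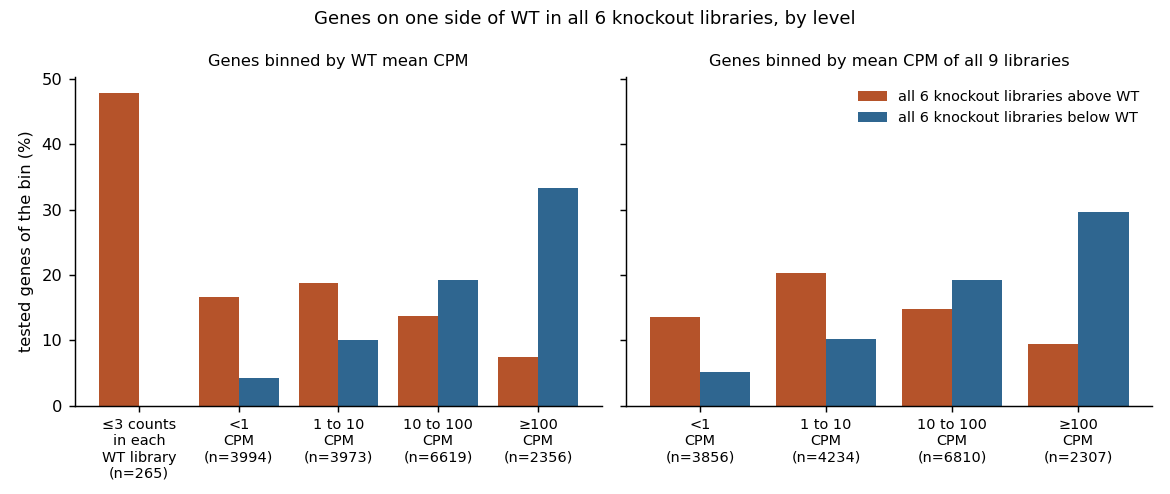
Percentage of tested genes (y axis) with all 6 knockout libraries above (orange) or below (blue) all 3 WT libraries, in bins of the WT mean (left) and of the mean of all 9 libraries (right), with the number of genes in brackets. The filter fixes the direction of the leftmost WT bin and of part of the genes under 1 CPM. In both panels the blue bars grow with the level, and the highest bin has more genes below than above WT.

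Among genes at the floor in WT, the largest fitted changes were those of CA4, a membrane-bound carbonic anhydrase, and ASXL3, a chromatin regulator of the Polycomb-related ASXL family. CA4 had 0, 0.0267 and 0 CPM in WT, 3.97, 4.04 and 4.12 in 1-1 KO and 7.36, 6.43 and 7.04 in 1-2 KO, at least 63.4-fold higher as measured against 3 counts. ASXL3 was at 0 in WT and reached 6.27, 6.38 and 7.19 CPM in 1-2 KO, but only 0.0945, 0.0973 and 0.0735 CPM in 1-1 KO. Measured against 3 counts, 1-2 KO was at least 79.2-fold higher, while the bound for 1-1 KO was 1.06-fold, so a floor gene could be one-sided with a trace in 1 of the lines. Among genes measured under 1 CPM in WT, the kinase gene PAK5 had 0.101, 0.107 and 0.190 CPM in WT, 2.55, 2.33 and 2.48 CPM in 1-1 KO and 23.7, 26.3 and 26.9 CPM in 1-2 KO. FAT3, an atypical cadherin, had 0.226, 0.213 and 0.222 CPM in WT, 3.69, 4.50 and 3.38 CPM in 1-1 KO and 37.1, 41.8 and 41.3 CPM in 1-2 KO. Both rose in both lines, with 60.2-fold and 55.6-fold for the mean (log2 5.91 for PAK5, log2 5.80 for FAT3), and both were highest in 1-2 KO. FAT3 had 9, 8 and 7 counts in WT and PAK5 was lower still, so both passed the filter only through the knockouts. A fall could not have been seen.

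At 1 to 10 CPM in WT the largest rises were those of COL2A1, the fibrillar collagen of cartilage, and AMOT, a scaffold protein of the Hippo pathway. COL2A1 had 10.2, 8.37 and 10.6 CPM in WT, 379, 400.3 and 374 CPM in 1-1 KO and 43.4, 41.8 and 46.6 CPM in 1-2 KO (log2 fold change 3.75 ± 0.07 SE, adjusted p = 6.1e-14). AMOT had 3.34, 2.88 and 3.52 CPM in WT, 22.3, 23 and 22.9 CPM in 1-1 KO and 71.6, 79.3 and 79.6 CPM in 1-2 KO (log2 fold change 3.69 ± 0.07 SE, adjusted p = 7.1e-14). The lines differed in opposite ways here, since 1-1 KO was the higher one for COL2A1 and 1-2 KO for AMOT. The largest falls in the bin were those of MAGEC2, a cancer-testis antigen on the X chromosome, and GLP2R, a G-protein-coupled hormone receptor. MAGEC2 went from a mean of 4.69 ± 0.410 CPM in WT to 0.0800 ± 0.0351 CPM in 1-1 KO and 0.424 ± 0.0848 CPM in 1-2 KO (SD, n = 3 each), and GLP2R from a mean of 5.58 ± 0.434 CPM in WT to 0.0401 ± 0.0135 CPM in 1-1 KO and 3.54 ± 0.217 CPM in 1-2 KO. Both fell (MAGEC2 log2 -4.63, adjusted p = 2.1e-11, GLP2R adjusted p = 4.2e-11). GLP2R was at the floor in 1-1 KO, at least 77.1-fold lower, and 1.58-fold lower in 1-2 KO.

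At 10 to 100 CPM, INHBE, which encodes the activin E subunit made in liver, had 16.8, 14.9 and 16.0 CPM in WT, 42.2, 44.1 and 45.2 CPM in 1-1 KO and 144, 152 and 154 CPM in 1-2 KO (log2 fold change 2.35 ± 0.05 SE, adjusted p = 1.2e-13). The kinesin gene KIF5C had 10.2, 10.9 and 10.3 CPM in WT, 67.4, 69.9 and 69.2 CPM in 1-1 KO and 37.2, 42.6 and 37.6 CPM in 1-2 KO (log2 fold change 2.31 ± 0.06 SE, adjusted p = 5.7e-13). The falls were led by ACTG2, a smooth muscle actin, which had 17.0, 14.5 and 15.9 CPM in WT, 0.0473, 0.146 and 0.0490 CPM in 1-1 KO and 5.39, 6.48 and 5.44 CPM in 1-2 KO (log2 fold change -4.51 ± 0.13 SE, adjusted p = 3.3e-12). It was near 0 in 1-1 KO and less lowered in 1-2 KO, so the mean lay between very different values.

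The most abundant genes that rose past 2-fold were led by products of hepatocytes. AFP, the fetal serum protein that is re-expressed in hepatocellular carcinoma, had 1729, 1837 and 1710.0 CPM in WT, 8132, 8024 and 8346 CPM in 1-1 KO and 7037, 7649 and 7571 CPM in 1-2 KO. ALB, which encodes serum albumin and neighbours AFP on chromosome 4, had 2526, 2589 and 2479 CPM in WT, 9283, 9292 and 9707 CPM in 1-1 KO and 4416, 4907 and 4893 CPM in 1-2 KO. AFP rose 4.43-fold (log2 fold change 2.15 ± 0.04 SE, adjusted p = 7.1e-14) and ALB 2.64-fold (log2 fold change 1.40 ± 0.04 SE, adjusted p = 3.2e-12), and no library overlapped. The rise of ALB was larger in 1-1 KO (difference 1-2 KO minus 1-1 KO -0.99 ± 0.04 SE on the log2 scale, adjusted p = 1.2e-10), while that of AFP differed by -0.14 ± 0.04 SE (adjusted p = 0.0093). The fibrillar collagen gene COL5A2 had 651, 591 and 591 CPM in WT, 1526, 1567 and 1559.7 CPM in 1-1 KO and 1304, 1434 and 1423 CPM in 1-2 KO, a rise of 2.40-fold. SGK1, a serum- and glucocorticoid-induced kinase, had 43.8, 42.3 and 42.0 CPM in WT, 162, 164 and 169 CPM in 1-1 KO and 124, 128 and 133 CPM in 1-2 KO, and rose 3.41-fold. LSR, a receptor for triglyceride-rich lipoproteins that is also found at tricellular junctions, lay at the 2-fold limit (log2 1.00, adjusted p = 1.4e-09) from a mean of 61.2 ± 4.31 CPM in WT to 159 ± 5.02 CPM in 1-1 KO and 94.0 ± 7.40 CPM in 1-2 KO.

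In the opposite direction, the intermediate filament gene NES had 2070.4, 1789 and 1930.2 CPM in WT, 493, 490.1 and 521 CPM in 1-1 KO and 1494, 1582 and 1537 CPM in 1-2 KO. WDR1, a cofactor of actin filament disassembly, had 1118, 1125 and 1177 CPM in WT, 386, 395 and 398 CPM in 1-1 KO and 725, 714 and 703 CPM in 1-2 KO. NES fell 2.20-fold and WDR1 2.15-fold (log2 -1.14, adjusted p = 3.2e-11 and log2 -1.11, adjusted p = 1.1e-12), both more in 1-1 KO. GJA1, the gap junction protein connexin, went from a mean of 713 ± 14.8 CPM in WT to 569 ± 5.51 CPM in 1-1 KO and 157 ± 8.68 CPM in 1-2 KO (log2 -1.25, adjusted p = 1.6e-12), so that 1-2 KO was the lower line. VCAN, the matrix proteoglycan versican, had 273, 279 and 261 CPM in WT, 129, 131 and 129 CPM in 1-1 KO and 44.1, 45 and 44.9 CPM in 1-2 KO (log2 fold change -1.83 ± 0.03 SE, adjusted p = 4.2e-14). The adhesion molecule gene ICAM1 had 236, 230.4 and 237 CPM in WT, 91.1, 95.6 and 91.9 CPM in 1-1 KO and 108, 107 and 102 CPM in 1-2 KO (log2 fold change -1.24 ± 0.03 SE, adjusted p = 4.9e-13). The calcium-binding protein gene S100P had the largest fall among genes at 100 CPM or more in WT, with 117, 119 and 120.2 CPM in WT, 19.5, 18.9 and 23.1 CPM in 1-1 KO and 25.8, 27.6 and 28.2 CPM in 1-2 KO (log2 fold change -2.33 ± 0.05 SE, adjusted p = 2e-13).

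**Figure D2:**
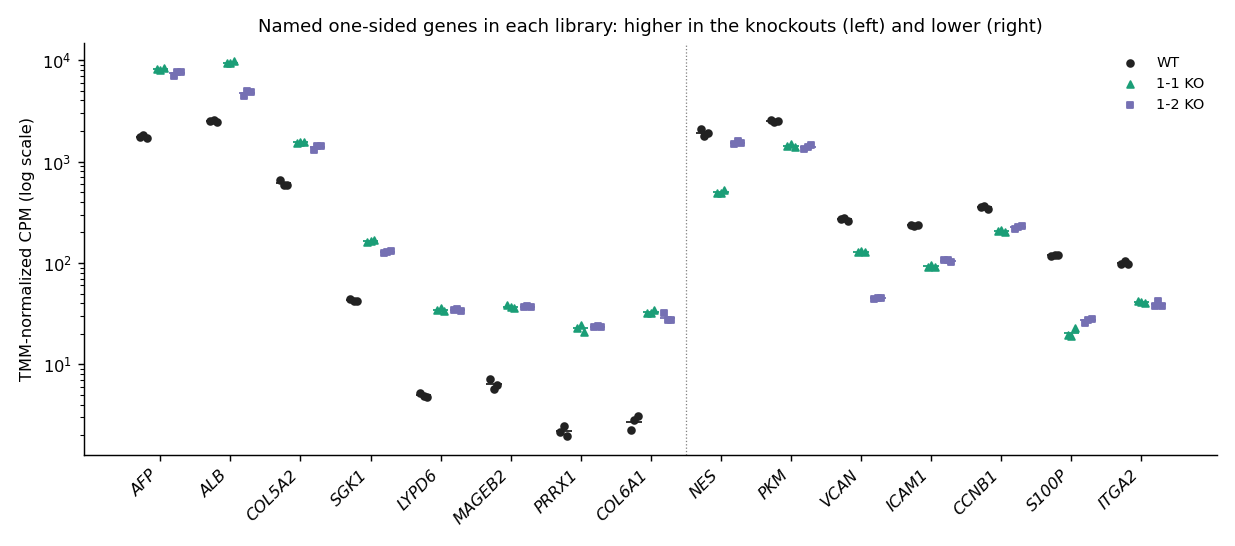
TMM-normalized CPM on a log axis for 15 of the genes named in the text, with 1 point per library, short lines at the mean of each line, circles for WT, triangles for 1-1 KO and squares for 1-2 KO. For every gene the 6 knockout points lie on one side of the 3 WT points, and for LYPD6, MAGEB2, PRRX1 and ITGA2 the knockout lines have nearly the same level.

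A few large changes were nearly equal in both lines. These genes were picked by that criterion, so their equality is a description. LYPD6, a membrane-anchored modulator of WNT signalling, had 5.20, 4.88 and 4.82 CPM in WT, 34.2, 35.8 and 33.6 CPM in 1-1 KO and 34.2, 35.2 and 33.7 CPM in 1-2 KO (log2 fold change 2.79 ± 0.05 SE, adjusted p = 9.6e-14). MAGEB2, a cancer-testis antigen, had 7.19, 5.71 and 6.25 CPM in WT, 38.4, 37.2 and 36.2 CPM in 1-1 KO and 36.9, 37.2 and 37.0 CPM in 1-2 KO (log2 fold change 2.54 ± 0.06 SE, adjusted p = 1e-12). PRRX1, a homeobox factor of mesenchymal cells, had 2.16, 2.45 and 1.97 CPM in WT, 23.1, 24.4 and 21 CPM in 1-1 KO and 23.4, 24.1 and 23.4 CPM in 1-2 KO (log2 fold change 3.40 ± 0.08 SE, adjusted p = 6.8e-13). In all of these the knockout lines interleaved and WT stood apart. The lower counterparts were ITGA2, an integrin subunit that binds collagen (from a mean of 99.4 ± 4.18 CPM in WT to 41.2 ± 0.747 CPM in 1-1 KO and 39.2 ± 2.20 CPM in 1-2 KO), the metalloproteinase gene ADAMTS12 (from a mean of 138 ± 3.90 CPM in WT to 61.0 ± 1.55 CPM in 1-1 KO and 57.5 ± 1.32 CPM in 1-2 KO), the myosin gene MYO7A (from a mean of 36.1 ± 0.544 CPM in WT to 17.1 ± 1.14 CPM in 1-1 KO and 16.8 ± 0.825 CPM in 1-2 KO) and MRPS21 of the mitochondrial ribosome (from a mean of 44.8 ± 1.14 CPM in WT to 23.2 ± 0.340 CPM in 1-1 KO and 21.6 ± 0.945 CPM in 1-2 KO). All these fell by about 1 log2 unit, with log2 fold changes of -1.31, -1.22, -1.09 and -1.0.

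One-sided genes were then grouped by function in 31 gene lists with 1272 distinct tested genes, of which 253 were above WT and 259 below. Counts of a list are read against the 15.2% and 15.3% of all tested genes, and its median log2 fold change against 0.01 for all tested genes. Its called genes are read against the 29.5% called higher and 28.4% called lower. The share below WT depended on level, with 33.4% at 100 CPM or more in WT, so 15.3% is a low background for lists of abundant genes. In the neighbour correction, the median of the 50 nearest genes was subtracted from each gene in each library, and a list's counts under it or under library size alone are given where one moved by more than 1.5 times.

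Proteins that hepatocytes secrete into plasma went both ways. Of 54 tested genes, 17 were above and 11 below WT, both shares above the background, and 27 passed the test as higher and 21 as lower (median log2 fold change 0.14). Beside AFP and ALB, HRG, a histidine-rich plasma glycoprotein, rose (log2 1.66, adjusted p = 2.4e-07). The fetuin gene AHSG also rose, from a mean of 363 ± 5.07 CPM in WT to 519 ± 8.49 CPM in 1-1 KO and 625 ± 32.4 CPM in 1-2 KO (log2 0.65, adjusted p = 1.8e-09). The antithrombin gene SERPINC1 fell (log2 -1.16, adjusted p = 4.8e-08), as did MBL2, the mannose-binding lectin of the complement system (log2 -1.17, adjusted p = 1.1e-08), and the complement component gene C8B (log2 -0.94, adjusted p = 3.2e-06). Of the 11 lower genes, 9 were on chromosomes 1, 6 and 10, where lower genes were common and 14 of the 54 tested genes lie. With the neighbour correction, 17 of the 54 were above and 12 below WT. Of 30 hepatocyte transcription factors, 9 were above and 2 below WT (13 called higher and 5 lower, and 7 above and 4 below WT with the neighbour correction). HNF4G (log2 0.76, adjusted p = 1.8e-07), GATA6 (log2 0.69, adjusted p = 1e-05) and ONECUT1 (log2 0.63, adjusted p = 2.7e-07) rose. The factors below WT were both nuclear receptors, NR1H4, which senses bile acids (from a mean of 62.8 ± 2.75 CPM in WT to 42.4 ± 0.440 CPM in 1-1 KO and 21.5 ± 0.751 CPM in 1-2 KO, log2 -1.05, adjusted p = 3.1e-11), and NR1H3, which senses oxysterols (log2 -0.38, adjusted p = 2.7e-05).

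HNF1 factors bind many liver promoters, and the half-site GTTAAT was searched on both strands (as GTTAAT or ATTAAC) in the 300 bases around each RefSeq start site. It was found in 2411 of 34943 promoters (6.90%) and in 17 of the 55 promoters (30.9%) of secreted protein genes. The promoter was found for 41 of the 54 secreted protein genes, and 15 of these held the half-site, 6 of 14 above WT, 3 of 7 below and 6 of 20 that overlapped WT. The AFP promoter (chr4:73435971-73436270, plus strand, RefSeq, GRCh38.p14) is shown as that of the most abundant gene that rose over 4-fold, with the half-site in capitals.
AFP: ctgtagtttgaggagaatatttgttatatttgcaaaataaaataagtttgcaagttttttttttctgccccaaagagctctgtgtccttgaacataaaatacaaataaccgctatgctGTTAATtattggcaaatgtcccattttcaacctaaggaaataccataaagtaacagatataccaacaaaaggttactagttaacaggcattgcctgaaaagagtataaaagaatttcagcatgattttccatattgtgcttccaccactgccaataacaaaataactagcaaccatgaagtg

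Genes known from the intestinal epithelium, some of which are also active in liver cancer cells, included several of the largest rises. Of 35 tested, 15 were above and 4 below WT, and 22 passed the test as higher and 9 as lower (median log2 fold change 0.76). The counts and the median include CA4, SI and HEPH, which were at the floor in WT. They passed the filter only through the knockouts and could not have been below WT. SI, the brush-border enzyme sucrase-isomaltase, had 0.0754, 0.0800 and 0.0634 CPM in WT, 28.3, 28.0 and 24.5 CPM in 1-1 KO and 8.10, 8.36 and 9.78 CPM in 1-2 KO, at least 184-fold higher. HEPH, a ferroxidase that serves iron export, had 0.0503, 0.0800 and 0.0634 CPM in WT, 12.4, 12.4 and 11.5 CPM in 1-1 KO and 1.61, 2.41 and 2.05 CPM in 1-2 KO, at least 59.3-fold higher. Both were at the floor of 3 counts in every WT library and higher in 1-1 KO than in 1-2 KO (adjusted p = 4.9e-10 and 1.8e-10). Not all brush-border genes moved this way: VIL1, which bundles actin in microvilli, fell from a mean of 984 ± 32.6 CPM in WT to 445 ± 4.56 CPM in 1-1 KO and 840.5 ± 35.2 CPM in 1-2 KO (log2 -0.69, adjusted p = 5.6e-10), and the disaccharidase gene MGAM fell from a mean of 10.3 ± 0.471 CPM in WT to 3.71 ± 0.272 CPM in 1-1 KO and 4.07 ± 0.197 CPM in 1-2 KO (log2 -1.40, adjusted p = 1.3e-09).

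Collagen and matrix glycoprotein genes were often above WT. Of 63 tested, 28 were above and 5 below WT, and 37 passed the test as higher and 8 as lower (median log2 fold change 0.48, 0.56 in 1-1 KO and 0.73 in 1-2 KO). COL6A1, a chain of the pericellular collagen VI, had 2.26, 2.83 and 3.11 CPM in WT, 32.4, 31.9 and 34.7 CPM in 1-1 KO and 32.0, 27.1 and 27.5 CPM in 1-2 KO (log2 fold change 3.51 ± 0.10 SE, adjusted p = 1.8e-12). It lies between 40 and 60 Mb of chromosome 21, where 29 of 64 genes were above WT. Beside VCAN, COL16A1 (from a mean of 3.91 ± 0.373 CPM in WT to 0.587 ± 0.0454 CPM in 1-1 KO and 1.44 ± 0.158 CPM in 1-2 KO, log2 -2.09, adjusted p = 2.9e-09) and the laminin gene LAMA4 (log2 -1.24, adjusted p = 7.2e-10) fell. Fibroblast and stellate cell markers summed to 192 to 203 CPM in WT, 284 to 298 in 1-1 KO and 128 to 138 in 1-2 KO, with THY1 at the floor throughout. Their sum did not move in 1 direction in both knockouts.

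Clustered protocadherins are neighbouring genes for neuronal-type adhesion molecules on chromosome 5, with PCDHGC3 at about chr5:141476000-141513000 (rounded). They lie near the VTRNA1 genes, of which VTRNA1-2 is at chr5:140718925-140719013. Between 140 and 160 Mb of chromosome 5, 44 of 158 genes were above and 8 below WT, with protocadherins among those above. Of 34 tested, 21 were above and 0 below WT, and 29 passed the test as higher and 0 as lower (median log2 fold change 1.03, 1.34 in 1-1 KO and 0.78 in 1-2 KO). PCDHGC3 had 2.51, 2.51 and 2.19 CPM in WT, 6.99, 7.20 and 8.48 CPM in 1-1 KO and 7.10, 7.03 and 6.71 CPM in 1-2 KO (log2 fold change 1.59 ± 0.10 SE, adjusted p = 6.5e-09). PCDHGA2 had 2.61, 2.03 and 2.88 CPM in WT, 14.9, 14.3 and 14.9 CPM in 1-1 KO and 4.04, 3.94 and 4.54 CPM in 1-2 KO (log2 fold change 1.65 ± 0.10 SE, adjusted p = 8.4e-09). The knockout lines overlapped for PCDHGC3 and 1-1 KO was far higher for PCDHGA2, and as gamma genes share their last exons, reads may be split between them. With the neighbour correction, in which cluster members are each other's neighbours, 6 of the 34 were above WT.

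Interferon-stimulated genes were another group with many members above WT. Interferons act through STAT factors to induce proteins that sense or block viral RNA and genes of antigen presentation. Of 42 tested, 22 were above and 1 below WT, and 25 passed the test as higher and 4 as lower (median log2 fold change 0.37). MX1, a GTPase that blocks viruses, had 0.352, 0.133 and 0.317 CPM in WT, 2.53, 2.80 and 2.18 CPM in 1-1 KO and 1.26, 1.21 and 1.65 CPM in 1-2 KO (log2 fold change 2.78 ± 0.24 SE). IFI6, an interferon-inducible membrane protein, had 0.377, 0.373 and 0.602 CPM in WT, 3.40, 3.02 and 3.8 CPM in 1-1 KO and 4.01, 2.01 and 1.92 CPM in 1-2 KO (log2 fold change 2.76 ± 0.29 SE, adjusted p = 2e-06). The immunoproteasome gene PSMB9 had 0.528, 0.453 and 0.380 CPM in WT, 1.87, 1.82 and 2.43 CPM in 1-1 KO and 3.42, 3.44 and 4.12 CPM in 1-2 KO (log2 fold change 2.57 ± 0.18 SE, adjusted p = 2.4e-08). These were all low genes, under 1 CPM in WT. UBE2L6, which conjugates ISG15, had 27.0, 24 and 25.9 CPM in WT, 55.4, 54.0 and 53.6 CPM in 1-1 KO and 52.2, 57.7 and 57.1 CPM in 1-2 KO, with overlapping knockout lines (log2 fold change 1.10 ± 0.05 SE, adjusted p = 2.1e-10). The list was not uniform: IFI35 fell, from a mean of 5.22 ± 0.279 CPM in WT to 1.40 ± 0.0268 CPM in 1-1 KO and 0.794 ± 0.0613 CPM in 1-2 KO (log2 -2.31, adjusted p = 1.5e-10). ISG15 itself overlapped WT, with means of 17.2 CPM in WT, 17.9 in 1-1 KO and 16.7 in 1-2 KO (adjusted p = 0.88), and so did IFIT1 with 2.04, 2.20 and 2.04 CPM (adjusted p = 0.79). ISG15 and IFIT1, which are textbook interferon targets, were named for their role after their values were seen. With the neighbour correction, 22 of the 42 were above WT and 2 below.

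Interferon acts through the ISRE, a promoter element whose core, here GAAA, any 2 bases and GAAA again (TTTC on the other strand), was found in 3.57% of all promoters. It was found in 28 of the 46 promoters (60.9%) of listed genes. Counted by gene, with a match in any promoter, it was found for 26 of the 37 listed genes that had a promoter sequence, 16 of 20 above WT and 10 of 16 that overlapped WT. Among all promoters of one-sided genes it was found in 3.42% of those above and 2.49% of those below WT, and in 2.81% of those of genes that overlapped WT. The IFI6 promoter (chr1:27672143-27672442, minus strand, RefSeq, GRCh38.p14) is shown as an example with 3 copies, in capitals.
IFI6: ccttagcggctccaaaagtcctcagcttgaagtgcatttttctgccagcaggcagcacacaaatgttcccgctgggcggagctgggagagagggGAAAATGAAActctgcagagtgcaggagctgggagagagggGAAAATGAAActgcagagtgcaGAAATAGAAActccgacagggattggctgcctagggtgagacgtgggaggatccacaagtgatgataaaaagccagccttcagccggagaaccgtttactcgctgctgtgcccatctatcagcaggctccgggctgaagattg

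The genes of MHC class I antigen presentation, part of which belong to the interferon list too, had 20 tested members, of which 9 were above and 3 below WT (12 called higher and 4 lower). HLA-B, which encodes a presenting molecule, had 0.276, 0.373 and 0.412 CPM in WT, 1.89, 1.99 and 1.89 CPM in 1-1 KO and 3.39, 3.26 and 2.05 CPM in 1-2 KO (log2 fold change 2.75 ± 0.23 SE, adjusted p = 1.6e-07). HLA genes have near-identical copies, so their counts are uncertain. PSMB8 of the immunoproteasome had 1.63, 1.25 and 1.36 CPM in WT, 7.51, 7.83 and 8.90 CPM in 1-1 KO and 6.67, 6.48 and 7.64 CPM in 1-2 KO (log2 fold change 2.39 ± 0.12 SE, adjusted p = 6.7e-10). NLRC5, a transactivator of these genes, was lower in both lines (from a mean of 3.91 ± 0.300 CPM in WT to 1.52 ± 0.226 CPM in 1-1 KO and 2.49 ± 0.134 CPM in 1-2 KO, log2 -1.01, adjusted p = 2e-06), and the chaperone genes CALR (log2 -0.19, adjusted p = 0.00025) and PDIA3 (log2 -0.22, adjusted p = 8.3e-06) fell slightly.

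Genes of mitosis were the list with the largest share below WT. Cyclin B with CDK1 drives entry into mitosis, kinesins build the spindle, and checkpoint kinases hold chromosome separation. Of 49 tested genes, 29 were below WT and none above, and 7 passed the test as higher and 34 as lower (median log2 fold change -0.34, -0.33 in 1-1 KO and -0.28 in 1-2 KO). CCNB1, cyclin B, had 354, 366 and 344 CPM in WT, 206, 209.9 and 201 CPM in 1-1 KO and 217, 228 and 229 CPM in 1-2 KO (log2 fold change -0.72 ± 0.03 SE, adjusted p = 2e-10). TTK, the checkpoint kinase, had 122, 129 and 119 CPM in WT, 82.0, 80.1 and 79.2 CPM in 1-1 KO and 77.6, 78.7 and 85.2 CPM in 1-2 KO (log2 fold change -0.62 ± 0.04 SE, adjusted p = 5.3e-09). KIF23, a kinesin of cytokinesis, had 229.9, 232 and 222 CPM in WT, 135, 134 and 143 CPM in 1-1 KO and 152, 171 and 167 CPM in 1-2 KO (log2 fold change -0.61 ± 0.04 SE, adjusted p = 8.6e-09). The falls were all under 2-fold. The largest, of CCNB1, was 1.65-fold. Not every member fell, since CCNA2, which encodes cyclin A, and AURKB, the chromosomal passenger kinase, overlapped WT (adjusted p = 0.15 and 0.17, named after their values were seen). Of the 29 lower genes, 11 were on chromosomes 1, 6 and 10, where lower genes were common. CCNB1 lies between 60 and 80 Mb of chromosome 5, where 60 of 107 genes were below WT. After subtraction of the 50 nearest genes, 34 of the 49 were below WT and 1 above. With library size alone, 28 were below and 4 above.

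**Figure D3:**
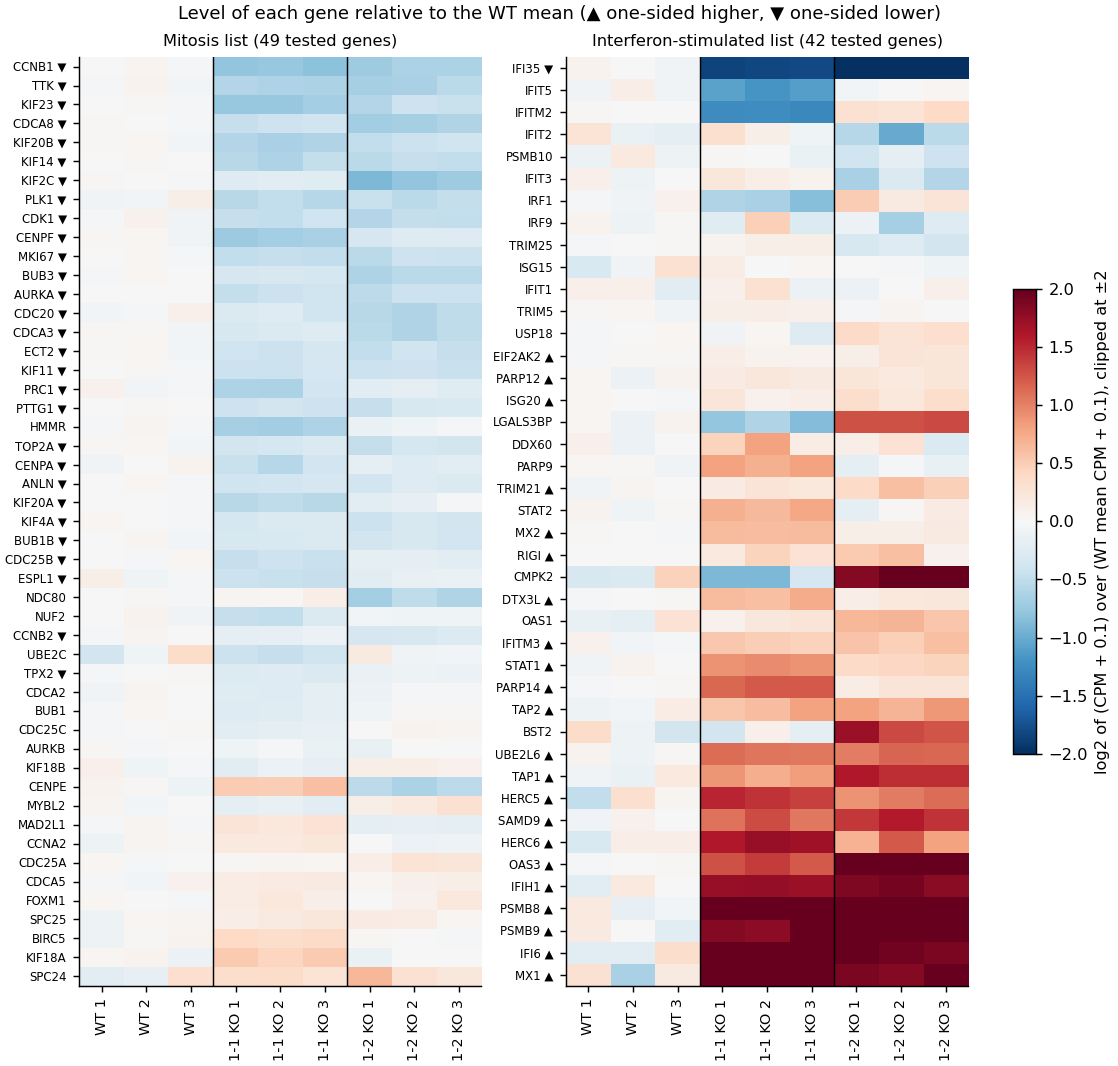
Level of each tested gene of the mitosis list (left) and the interferon-stimulated list (right) in each library, as log2 of CPM + 0.1 over the WT mean + 0.1 with the color scale ending at 2 in either direction, genes ordered by fold change and triangles marking one-sided genes. The mitosis panel is pale blue in most rows of both knockouts, while the interferon panel runs from strong blue for IFI35 to deep red for MX1, IFI6, PSMB9 and PSMB8.

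Many mitotic promoters hold the CHR element TTTGAA, the binding site of the complexes that time their transcription. TTTGAA or TTCAAA was found in 15.2% of all promoters and in 31 of the 51 promoters (60.8%) of mitosis genes. Counted by gene, with a match in any of its promoters, it was found for 28 of the 41 mitosis genes with a promoter sequence. By direction these were 20 of 25 genes below WT and 8 of 16 that overlapped WT. Among all promoters of one-sided genes the letters were in 12.9% of those below and 10.8% of those above WT, and in 10.8% of those of genes that overlapped WT. The KIF23 promoter (chr15:69414099-69414398, plus strand, RefSeq, GRCh38.p14) is shown as that of the gene with the third largest fall of the list, with the element in capitals.
KIF23: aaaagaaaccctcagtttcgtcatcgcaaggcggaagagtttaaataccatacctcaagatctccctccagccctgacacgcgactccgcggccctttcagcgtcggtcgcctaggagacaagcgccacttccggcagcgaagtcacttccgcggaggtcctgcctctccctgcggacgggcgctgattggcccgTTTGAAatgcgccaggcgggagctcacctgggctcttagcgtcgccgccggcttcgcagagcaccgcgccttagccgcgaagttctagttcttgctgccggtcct

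Genes of DNA replication and S phase did not follow those of mitosis. Of 50 tested, 12 were above and 5 below WT, and 25 passed the test as higher and 11 as lower, with 15 above and 3 below WT with library size alone and 5 above and 4 below WT with the neighbour correction (median log2 fold change 0.08). The helicase gene MCM2 rose (log2 0.46, adjusted p = 1.9e-06), as did the thymidine kinase gene TK1 (log2 0.45, adjusted p = 3.1e-08) and GINS3 of the replicative helicase (log2 0.46, adjusted p = 3.1e-06). MCM10, which helps to load the replication fork, fell (log2 -0.41, adjusted p = 1.2e-07), and so did the sliding clamp gene PCNA, by a smaller amount (log2 -0.22, adjusted p = 1.2e-05). Clustered histone genes, whose mRNAs largely lack a poly(A) tail, had 40 tested members, of which 2 were above and 0 below WT (22 called higher and 1 lower). Their median log2 fold change was 0.68, with 2.08 in 1-1 KO and -1.07 in 1-2 KO. Histone genes have near-identical copies, so their counts are uncertain.

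Cytosolic ribosomal protein genes were shifted down by small amounts. Of 83 tested, 1 was above and 37 below WT, and 3 passed the test as higher and 56 as lower (median log2 fold change -0.20, -0.27 in 1-1 KO and -0.10 in 1-2 KO). The share below was 44.6%, against 33.4% of all tested genes at 100 CPM or more in WT, the level of most of these genes. RPS23 had 1086, 1115 and 1100.0 CPM in WT, 559, 570.1 and 600.1 CPM in 1-1 KO and 679.9, 733 and 740.1 CPM in 1-2 KO (log2 fold change -0.77 ± 0.03 SE, adjusted p = 2.5e-10). RPS12 had 1095, 1146 and 1156 CPM in WT, 724, 709.8 and 816 CPM in 1-1 KO and 762, 765 and 738 CPM in 1-2 KO (log2 fold change -0.59 ± 0.04 SE, adjusted p = 2.6e-08). RPL8 was the exception above WT, with 643, 736 and 961 CPM in WT, 1096, 1064 and 1043 CPM in 1-1 KO and 1146, 966 and 989 CPM in 1-2 KO (log2 fold change 0.43 ± 0.09 SE, adjusted p = 0.0013). Its WT libraries spread widely and replicate 3 was near the knockouts. These genes have many processed pseudogenes with near-identical sequence, so reads may be split. With library size alone, 1 was above and 26 below WT. With the neighbour correction, 0 were above and 44 below, so RPL8 was then no longer above WT. Of 13 genes encoded by mitochondrial DNA, 6 were below WT and none above, but 2 with library size alone. MT-CYB of complex III had 2760.3, 2176 and 2045 CPM in WT, 1518, 1385 and 1551 CPM in 1-1 KO and 1674, 1806 and 1884 CPM in 1-2 KO (log2 fold change -0.51 ± 0.07 SE, adjusted p = 3.8e-05). Of 78 nuclear genes for respiratory chain subunits, 4 were above and 23 below WT (17 called higher and 33 lower) and those below included NDUFS4 of complex I (log2 -0.93, adjusted p = 2e-09) and the ATP synthase genes ATP5F1C (log2 -0.89, adjusted p = 1.1e-10) and ATP5ME (log2 -0.69, adjusted p = 1.9e-09). Their median log2 fold change was -0.04, and 0.01 with library size alone. The share below was 29.5%, against 33.4% of all tested genes at 100 CPM or more in WT and 19.2% at 10 to 100 CPM. ATP5F1C is on chromosome 10 between 0 and 20 Mb, where 46 of 84 genes were below WT. ATP5ME is on chromosome 4 between 0 and 20 Mb, where 56 of 119 genes were below WT.

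Genes of actin, adhesion and the factor SRF were also lower in part. Of 60 tested, 2 were above and 17 below WT, and 5 passed the test as higher and 43 as lower (median log2 fold change -0.30, -0.58 in 1-1 KO and 0.04 in 1-2 KO). CNN1, the smooth muscle protein calponin, had 28.6, 27.9 and 28.6 CPM in WT, 3.24, 3.09 and 2.99 CPM in 1-1 KO and 21.2, 22.5 and 24.6 CPM in 1-2 KO (log2 fold change -1.75 ± 0.06 SE, adjusted p = 9.7e-12). Like ACTG2, it was far lower in 1-1 KO (difference 2.87 ± 0.08 SE on the log2 scale, adjusted p = 5.9e-13). ITGA2 was low in both, and the laminin-binding integrin subunit gene ITGA3 was among the exceptions, from a mean of 1.79 ± 0.306 CPM in WT to 3.95 ± 0.335 CPM in 1-1 KO and 8.76 ± 0.515 CPM in 1-2 KO (log2 1.72, adjusted p = 1.6e-08). Of 25 genes used to score epithelial and mesenchymal states, 4 were above and 5 below WT (13 called higher and 8 lower, and 7 above and 5 below WT with the neighbour correction). The mesenchymal intermediate filament gene VIM fell from a mean of 852 ± 13.7 CPM in WT to 453 ± 2.14 CPM in 1-1 KO and 622 ± 4.75 CPM in 1-2 KO (log2 -0.68, adjusted p = 6e-11), and S100A4 fell as well (log2 -2.0, adjusted p = 3.3e-11). CDH2, the mesenchymal cadherin, rose slightly (log2 0.21, adjusted p = 8.9e-05), as did CLDN1 of tight junctions (log2 0.52, adjusted p = 5.3e-08), so that mesenchymal genes were found on both sides.

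The study asked about ERK signalling, angiogenesis and autophagy, among others. Of 40 genes of the MAPK/ERK cascade, 9 were above and 11 below WT (18 called higher and 15 lower). The receptor gene ERBB4 had 0.528, 0.560 and 0.571 CPM in WT, 5.77, 6.08 and 6.10 CPM in 1-1 KO and 3.94, 4.72 and 3.82 CPM in 1-2 KO (log2 fold change 3.17 ± 0.13 SE, adjusted p = 1.3e-10). The receptor genes ERBB2 (log2 0.55, adjusted p = 1.5e-08) and FGFR1 (log2 0.53, adjusted p = 4.9e-08) rose by less. IGF1R, the receptor for insulin-like growth factor, fell from a mean of 106 ± 2.74 CPM in WT to 48.3 ± 1.45 CPM in 1-1 KO and 61.9 ± 3.29 CPM in 1-2 KO (log2 -0.95, adjusted p = 6.1e-11), and the adaptor gene SHC1 fell mainly in 1-1 KO (from a mean of 235 ± 2.83 CPM in WT to 97.9 ± 1.78 CPM in 1-1 KO and 209.8 ± 6.36 CPM in 1-2 KO, log2 -0.71, adjusted p = 1e-10). Of 34 ERK targets and feedback regulators, 8 were above and 3 below WT (16 called higher and 8 lower). ETV1, a transcription factor downstream of ERK, had 9.37, 8.27 and 9.10 CPM in WT, 44.1, 46.3 and 45.4 CPM in 1-1 KO and 22.3, 24.2 and 23.6 CPM in 1-2 KO (log2 fold change 1.87 ± 0.06 SE, adjusted p = 4.2e-12). The AP-1 genes FOSB (log2 1.17, adjusted p = 2.8e-07) and JUND (log2 0.92, adjusted p = 0.00029) rose and FOSL1 (log2 -1.22, adjusted p = 4.9e-06) fell. Of 42 angiogenic ligands and receptors, 12 were above and 6 below WT (21 called higher and 12 lower). The receptor genes NOTCH1 (14.8, 13.8 and 19.2 CPM in WT, 38.3, 39.9 and 38.5 CPM in 1-1 KO and 51.8, 41.1 and 40.4 CPM in 1-2 KO, log2 1.39, adjusted p = 3.9e-08) and PDGFRB (log2 1.74, adjusted p = 2.4e-08) and the guidance ligand gene SEMA3F (log2 1.32, adjusted p = 1.1e-08) rose, while TIMP3, an inhibitor of metalloproteinases, fell from a mean of 79.0 ± 0.626 CPM in WT to 22.7 ± 1.04 CPM in 1-1 KO and 74.6 ± 2.38 CPM in 1-2 KO (log2 -0.94, adjusted p = 4.4e-11) and SEMA3C fell (log2 -0.80, adjusted p = 3.3e-06).

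Of 48 genes of the autophagy machinery, 7 were above and 7 below WT (17 called higher and 11 lower, and 8 above and 3 below WT with library size alone and 3 above and 5 below WT with the neighbour correction). That is 14.6% each way, near the shares of all tested genes. The kinase gene ULK2 rose (log2 1.04, adjusted p = 3.4e-06) and WIPI2 rose (log2 0.53, adjusted p = 3.8e-09), while the autophagy receptor gene OPTN, on chromosome 10, fell from a mean of 106 ± 1.66 CPM in WT to 47.9 ± 0.730 CPM in 1-1 KO and 65.3 ± 2.15 CPM in 1-2 KO (log2 -0.92, adjusted p = 1.4e-11) and ATG10 fell (log2 -0.73, adjusted p = 3.1e-06). Of 62 lysosomal genes, 7 were above and 14 below WT (19 called higher and 27 lower, and 6 above and 7 below WT with the neighbour correction). The proton pump genes ATP6V0A1 (log2 -0.45, adjusted p = 1.7e-07) and ATP6V1E1 (log2 -0.42, adjusted p = 4.8e-08) fell, and the peptidase gene TPP1 (log2 0.63, adjusted p = 8.3e-08), NPC2 for cholesterol export (log2 0.59, adjusted p = 5.7e-08) and the cathepsin gene CTSF (log2 0.60, adjusted p = 2.4e-07) rose. Of 35 genes of the vault particle and of RNA polymerase III, 1 was above and 11 below WT (7 called higher and 16 lower). The polymerase subunit genes CRCP (138, 138 and 141 CPM in WT, 84.7, 82.8 and 84.2 CPM in 1-1 KO and 90.2, 95.8 and 90.8 CPM in 1-2 KO, log2 -0.66, adjusted p = 2.6e-10) and POLR3C (log2 -0.69, adjusted p = 7.5e-10) and SNAPC5 of a small nuclear RNA promoter complex (log2 -0.54, adjusted p = 7e-08) fell, with POLR3C on chromosome 1, and GTF3C5 rose by 0.129 log2 units (adjusted p = 0.0038). Of 44 apoptosis genes, 6 were above and 6 below WT (15 called higher and 13 lower, and 10 above and 3 below WT with library size alone). That is 13.6% each way, again near the shares of all tested genes. The BCL2 relative MCL1 fell (log2 -0.51, adjusted p = 2.8e-09), more in 1-1 KO.

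Metabolic lists held changes in both directions, some at shares not far from the 15.2% above and 15.3% below WT of all tested genes. Above and below WT were 14.3% and 22.4% of fatty acid genes, 13.8% and 20.7% of cytochrome P450 and conjugating enzyme genes and 17.4% and 8.70% of apolipoprotein genes. The shares were 33.3% and 12.5% for cholesterol synthesis and 26.7% each way for glycolysis and gluconeogenesis. Of 24 genes of cholesterol synthesis, 8 were above and 3 below WT (13 called higher and 5 lower, and 12 above and 1 below WT with library size alone and 9 above and 1 below WT with the neighbour correction), with TM7SF2 (log2 0.98, adjusted p = 1.4e-08) and STARD4 (log2 0.59, adjusted p = 4.9e-08) higher and IDI1, on chromosome 10, lower (log2 -0.70, adjusted p = 9.4e-10). Of 49 genes of fatty acid metabolism, 7 were above and 11 below WT (18 called higher and 14 lower). FABP1, the fatty acid binding protein of liver, had 33.2, 32.5 and 32.7 CPM in WT, 95.1, 105 and 106 CPM in 1-1 KO and 78.8, 82.9 and 82.9 CPM in 1-2 KO (log2 fold change 1.48 ± 0.04 SE, adjusted p = 3.3e-12), and the desaturase gene FADS2 rose (log2 0.94, adjusted p = 2.4e-10). The acyl-CoA ligase gene ACSL5 fell from a mean of 14.8 ± 0.466 CPM in WT to 4.61 ± 0.415 CPM in 1-1 KO and 4.30 ± 0.165 CPM in 1-2 KO (log2 -1.74, adjusted p = 6.7e-11) and the malic enzyme gene ME1 fell by similar amounts in both lines (from a mean of 316 ± 7.80 CPM in WT to 157 ± 1.27 CPM in 1-1 KO and 161 ± 8.07 CPM in 1-2 KO, log2 -0.99, adjusted p = 1.4e-11). Of 23 apolipoprotein and lipoprotein genes, 4 were above and 2 below WT (11 called higher and 6 lower). APOE rose (log2 0.49, adjusted p = 3.4e-05), and LCAT, which esterifies cholesterol in plasma, fell (log2 -0.67, adjusted p = 2.2e-06). Of 30 genes of glycolysis and gluconeogenesis, 8 were above and 8 below WT (11 called higher and 14 lower). PKM, the pyruvate kinase of proliferating cells, had 2588, 2448 and 2527 CPM in WT, 1424, 1474 and 1404 CPM in 1-1 KO and 1342, 1376 and 1459 CPM in 1-2 KO (log2 fold change -0.84 ± 0.03 SE, adjusted p = 9.7e-11). The mitochondrial carboxykinase gene PCK2 (log2 1.05, adjusted p = 7e-10) and the glucose transporter genes SLC2A3 (log2 2.02, adjusted p = 8.1e-08) and SLC2A2 (log2 1.11, adjusted p = 1.5e-07) rose, and SLC2A1 fell (log2 -0.48, adjusted p = 2e-06). Of 58 cytochrome P450 and conjugating enzyme genes, 8 were above and 12 below WT (21 called higher and 24 lower). CYP2B6 (log2 -1.35, adjusted p = 3e-08) and SULT1A1 (log2 -0.95, adjusted p = 8.8e-09) fell, and UGT2A3 (log2 1.14, adjusted p = 9.8e-09) and UGT2B15 (log2 1.45, adjusted p = 3.8e-07), which has similar neighbouring genes, rose.

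Of 51 solute carriers, 11 were above and 10 below WT (23 called higher and 20 lower). The amino acid transporter gene SLC7A8 had 0.201, 0.107 and 0.412 CPM in WT, 14.1, 14.1 and 12.6 CPM in 1-1 KO and 1.85, 1.56 and 1.65 CPM in 1-2 KO (log2 fold change 4.36 ± 0.21 SE), and SLC6A14 rose (log2 3.66, adjusted p = 9.5e-10). SLC43A2, another amino acid carrier, fell from a mean of 38.5 ± 2.67 CPM in WT to 18.1 ± 0.414 CPM in 1-1 KO and 21.7 ± 1.91 CPM in 1-2 KO (log2 -0.95, adjusted p = 5.7e-09). Of 46 genes of the unfolded protein and integrated stress responses, 12 were above and 5 below WT (18 called higher and 12 lower, and 12 above and 3 below WT with library size alone). Beside INHBE, the targets of amino acid stress CHAC1 (log2 1.40, adjusted p = 4e-09) and STC2 (log2 1.25, adjusted p = 1.8e-11) rose, both more in 1-2 KO, while NUPR1 (log2 -1.42, adjusted p = 1.4e-08), XBP1 (log2 -0.44, adjusted p = 7.8e-08) and the chaperone gene HSP90B1 (log2 -0.42, adjusted p = 8.2e-08) fell. Of 18 imprinted genes, 6 were above and 3 below WT (9 called higher and 4 lower, and 7 above and 0 below WT with library size alone). The cell cycle inhibitor gene CDKN1C (log2 1.95, adjusted p = 1.9e-06), MAGEL2 (log2 1.23, adjusted p = 3.8e-07) and ZDBF2 (log2 0.72, adjusted p = 7.5e-09) rose, and MKRN3 fell (log2 -0.60, adjusted p = 6.7e-08). Of 12 cancer-testis antigens, 1 was above and 2 below WT (5 called higher and 4 lower).

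One-sided genes were unevenly spread over the genome, a property the rule did not use. On chromosome 10, 38.2% of 655 tested genes were below WT and 5.95% above, and on chromosome 1 the shares were 29.7% below and 8.35% above. In contrast, chromosome 19 had 23.7% above and 4.91% below, chromosome 14 had 26.7% and 6.81%, and chromosome 21 had 25.4% and 2.96%. On chromosome 10 the median gene was shifted by -0.20 log2 units in 1-1 KO and -0.22 in 1-2 KO, which share the WT libraries, and on chromosome 19 by 0.33 and 0.14. Windows of 20 Mb with at least 50 tested genes ranged further. Between 0 and 20 Mb of chromosome 4, 56 of 119 genes were below and 4 above WT, and between 140 and 160 Mb of chromosome 1, 108 of 236 below and 6 above. Between 140 and 160 Mb of chromosome 8, 30 of 81 genes were above WT and none below. DNA copy number was not measured here, so its part in these shifts was not tested. When the median of the 50 nearest genes was subtracted in each library, 2357 genes were above and 2569 below WT of 17135.

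**Figure D4:**
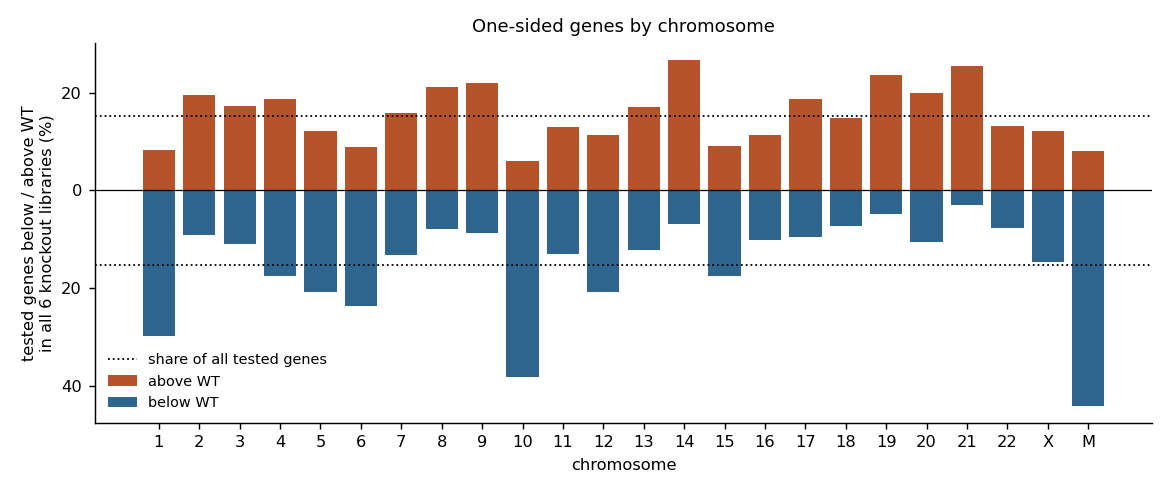
Percentage of tested genes on each chromosome with all 6 knockout libraries above WT (orange, up) or below WT (blue, down), with dotted lines at the shares of all tested genes. Chromosomes 10, 1 and the mitochondrial genome (M) have the longest blue bars, and chromosomes 14, 21 and 19 the longest orange bars.

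Protein-coding genes, with 17.1% above and 17.3% below WT, were balanced. Long noncoding RNAs were more often above (11.3% of 1811) than below (6.57%), and processed pseudogenes more often below (9.66% of 1066) than above (1.97%). Biotypes were not compared at matched level. Among all genes under 1 CPM in WT, 16.7% were above and 4.16% below, shares that the filter partly set. The median exonic length was 5241 nt for genes above WT, 5094 nt for genes below and 4651 nt for all tested genes.

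A shared direction did not mean a shared size. In edgeR's quasi-likelihood test of 1-2 KO against 1-1 KO, 1557 of 2616 higher genes (59.5%) and 1541 of 2625 lower genes (58.7%) differed between the lines, against 65.3% of all tested genes. Of those higher genes, 901 changed more in 1-1 KO and 656 more in 1-2 KO, and of the lower genes 911 and 630. A called difference between the lines of at least 2-fold was seen in 336 higher and 114 lower genes. ACTG2 (difference 6.11 ± 0.23 SE on the log2 scale) was an example, while TTK (0.00 ± 0.04, adjusted p = 0.98) and RPS12 (0.01 ± 0.05, adjusted p = 0.87) showed no difference that passed the test.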

How the data were processed

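RNA was extracted in triplicate from each of the 3 Huh-7 lines and sequenced as stranded poly(A) libraries. Per the labels and the methods, reads were aligned by STAR to hg38 (annotation version 104), and the deposited values are raw read counts per gene that featureCounts made. Strand use in counting and the treatment of multiply matching reads are not given in the sources used here. Of 60664 identifiers, 25452 had 0 counts everywhere. Symbols, positions and lengths came from GENCODE 44 on GRCh38, which held 60463 of the identifiers.

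In R 4.3.3, edgeR 4.0.16 was run with TMM normalization, filterByExpr (minimum count 10, minimum total 15) and 1 term per line over all 9 libraries. The contrast was the mean of both knockout coefficients minus WT, so a fold change for the mean is the geometric mean of both lines' fold changes. glmQLFTest p-values were adjusted by Benjamini-Hochberg over 17207 genes (threshold 0.05). Sidedness, lists and bins are descriptions without a test. The floor was a count of at most 3 in each library of a line, and folds against it are lower bounds. Such limits cover counting error only. Summaries and plots were made in Python 3.11.15 (pandas 2.3.3, numpy 2.4.6, matplotlib 3.10.9). The fit was tested on simulated counts.

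Named genes were, among one-sided genes, per WT level the 2 protein-coding genes with the largest rise and fall (mean of at least 1 CPM), the 6 most abundant past 2-fold per direction, the 4 most equal in both lines per direction (at least 2-fold and 10 CPM), and the 3 largest changes per list and direction, 187 in all, of which the text names part. Some genes that this rule picks are not reported here. The members and lists were chosen with earlier results of these data known. Alternatives were DESeq2 1.42.0 (Wald test or size factors), library size alone, other filters, thresholds and gaps, a replicate term, 1 group for all 6 knockout libraries, other bins and leaving out each library. The neighbour correction (50 nearest genes, pseudocount 0.1), the lists without WT replicate 3 or 1-2 KO replicate 1, and other scalings of the bins and chromosomes were added after seeing the data.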

Additional observations from a re-analysis of the deposited data

Results flagged for a closer look

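Of the 5241 genes with all 6 knockout libraries on one side of WT, 3098 (59.1%) differed in the size of their change between 1-2 KO and 1-1 KO by edgeR's quasi-likelihood test, against 65.3% of all tested genes. They were flagged because the effect differed between the knockout lines in a test of that difference. The median absolute difference between the lines was 0.24 log2 units over all one-sided genes, and the median absolute change of the mean was 0.48. Groups of 3 libraries were not tested for outliers gene by gene. Over all genes, 1-2 KO replicate 1 differed from the other libraries of its line by a chi-square per degree of freedom of 14.8 and 15.8, while those differed from each other by 2.63.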

How the results depend on the processing

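Each named gene kept its direction and stayed past the threshold under DESeq2's Wald test, the replicate block, library size alone and the removal of each library in turn. These genes were picked as one-sided, mostly with large changes, so this was largely set by the choice and is no support for them. Leaving out 1 library gave 4444 to 5142 genes called higher and 4464 to 4959 called lower, and 2716 to 3292 one-sided genes above and 2691 to 3184 below WT, the largest one-sided counts without WT replicate 3. Fewer libraries make the one-sided rule easier to meet. With all 6 knockout libraries as 1 group, 1949 genes were called higher and 1724 lower, since the difference between the lines then counts as error. A fold change of at least 2 was passed by 1330 called genes above and 366 below. A gap of at least 1.2 times between the nearest libraries kept 1177 genes above and 735 below WT, and one of at least 2 times 391 and 64. With library size alone, 276 genes at 100 CPM or more in WT were above WT in place of 174, and the median of all tested genes was 0.06 in place of 0.01. In the other settings tried, the counts of called and one-sided genes, those summed over all lists, in the level bins and on chromosomes 1, 10, 19 and 21, and those that differed between the lines stayed within 1.5 times. Counts of single lists moved by more with library size alone or the neighbour correction, as given beside them. The replicate numbers did not pair the libraries: the correlation of same-numbered deviations ranged from -0.35 to 0.18. A replicate block gave 4846 genes called higher and 4700 lower and changed no call of a named gene. The highest correlation was that of WT replicate 3 with 1-2 KO replicate 1 (0.46), while WT replicate 3 had -0.34 and -0.32 with 1-2 KO replicates 2 and 3. Depth limits genes under 1 CPM, where 3 counts are about 0.08 CPM.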

Other observations

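Several genes used as markers of other cell types were measured in these hepatoma cells and were one-sided. CD3D, a T cell receptor subunit gene, had 18.5, 19.7 and 19.1 CPM in WT, 3.88, 3.43 and 3.28 CPM in 1-1 KO and 0.499, 1.08 and 0.699 CPM in 1-2 KO, and fell (log2 fold change -3.54 ± 0.11 SE, adjusted p = 6.4e-12). LYZ, the lysozyme gene of myeloid cells, fell from a mean of 113 ± 0.330 CPM in WT to 102 ± 3.28 CPM in 1-1 KO and 19.2 ± 0.384 CPM in 1-2 KO, mainly in 1-2 KO (log2 fold change -1.36 ± 0.03 SE, adjusted p = 2.9e-13). The adhesion molecule gene PECAM1 of endothelial and blood cells fell from a mean of 7.57 ± 0.309 CPM in WT to 6.67 ± 0.377 CPM in 1-1 KO and 0.839 ± 0.136 CPM in 1-2 KO (log2 -1.68, adjusted p = 1.9e-09), and CD14 rose (log2 0.75, adjusted p = 5.4e-05). Over the 10 blood cell markers the summed level was 133 to 135 CPM in WT, 105 to 111 in 1-1 KO and 22.5 to 23.6 in 1-2 KO.

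Among neuronal genes, MAP2, a microtubule-associated protein of dendrites, had 67.8, 64.5 and 65.1 CPM in WT, 2.67, 2.89 and 2.87 CPM in 1-1 KO and 57.5, 61.6 and 58.1 CPM in 1-2 KO (log2 fold change -2.35 ± 0.04 SE, adjusted p = 6.1e-14). SNAP25, a protein of vesicle fusion, rose from a mean of 6.61 ± 0.504 CPM in WT to 11.1 ± 0.577 CPM in 1-1 KO and 35.0 ± 1.32 CPM in 1-2 KO (log2 1.57, adjusted p = 1.2e-10), and TUBB3 was slightly lower (log2 -0.34, adjusted p = 0.0035). The 10 neural markers summed to 84.4 to 88.4 CPM in WT, 24.1 to 25.6 in 1-1 KO and 106 to 109 in 1-2 KO. Of 9 tested biliary markers, 1 was above and 1 below WT, and the 10 markers summed to 742 to 825 CPM in WT, 813 to 829.6 in 1-1 KO and 912 to 1039 in 1-2 KO. The keratin gene KRT7, named after its values were seen, was the one below, with 0.276, 0.507 and 0.349 CPM in WT, 0.0236, 0.0243 and 0.0245 in 1-1 KO and 0.0712, 0.151 and 0.0998 in 1-2 KO. All its knockout libraries were under the filter's minimum of 10 counts. KRT7 thus passed the filter only through WT, where it was high, and its fall is given without a p-value. The biliary marker SPP1, osteopontin, rose from a mean of 65.2 ± 3.24 CPM in WT to 76.8 ± 1.28 CPM in 1-1 KO and 219 ± 10.6 CPM in 1-2 KO (log2 0.99, adjusted p = 1e-10), mainly in 1-2 KO.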
